A study of Homo sapiens with 12 samples.

Results

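The genes described here are 31 genes that encode proteins of the nuclear pore complex, chosen by name and found in a table of 58302 genes. All 31 were present once, and all 31 passed the filter on low counts. RNA was sequenced from lines of diffuse large B-cell lymphoma, a cancer of B cells, with 3 libraries in each of 4 groups. The groups were OCI-LY3 cells given selinexor, untreated OCI-LY3 cells, SU-DHL6 cells given selinexor and untreated SU-DHL6 cells. Both are established lines labelled wild type, OCI-LY3 as the activated B-cell type (ABC-DLBCL) and SU-DHL6 as the germinal centre type (GCB-DLBCL). Selinexor is a small-molecule inhibitor of XPO1, the receptor that carries many proteins out through the nuclear pore. The protocols name doses of 300 and 100 nM and times of 24 and 48 h without saying which libraries they belong to. Dose, time and line therefore cannot be told apart where the lines are compared. The design text calls the 3 libraries of a group biological triplicates and does not describe the cultures, so p-values measure the spread between these libraries.

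The nuclear pore complex is the channel through which proteins and RNA pass between nucleus and cytoplasm. Outer rings built from Y-shaped complexes and an inner ring form its scaffold, which membrane nucleoporins anchor in the nuclear envelope. Nucleoporins with phenylalanine-glycine (FG) repeats fill the central channel and bind transport receptors, XPO1 among them. On the cytoplasmic face, further proteins release exported cargo and messenger RNA, and on the nuclear face a basket of filaments receives cargo. Each member was placed at a single one of these positions. The Y complex of the outer rings had 9, the inner ring 5 and the central channel 3. The cytoplasmic face had 6, the nuclear basket 3 and the membrane 5.

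Library totals lay between 14210200 and 16405842 counts, and the members took between 0.283% and 0.392% of them. The lowest count of a member in a library was 106 (NUP35) and the highest 15424 (NUP210), and no 2 libraries of a group were identical. The B-cell receptor gene CD79A averaged 213 FPKM (fragments per length and depth) in untreated OCI-LY3 and 616 FPKM in untreated SU-DHL6. The germinal centre genes MME, LMO2 and MYBL1 were below 0.2 FPKM on average in OCI-LY3, and the activated B-cell gene CCND2 averaged 107 FPKM in untreated OCI-LY3 and 0.0517 FPKM in untreated SU-DHL6. Other markers of the types were present in both lines. The germinal centre genes BCL6 and S1PR2 averaged 12.2 and 5.11 FPKM in untreated OCI-LY3, against 24.3 and 62.5 FPKM in untreated SU-DHL6. The activated B-cell genes IRF4, BATF and PIM1 averaged 129.8, 195.5 and 292.1 FPKM in untreated OCI-LY3, against 20.7, 16.6 and 159 FPKM in untreated SU-DHL6. Of the markers of other cell types, those of T, myeloid and epithelial cells reached at most 0.424, 0.612 and 0.00977 FPKM, and the fibroblast gene COL1A1 reached 2.59 FPKM in OCI-LY3. Principal component 4, with 1.21% of the variance, set 2 libraries apart from their replicates. These were selinexor-treated OCI-LY3 library 3, at 25 against -8.29 and -12.6, and untreated SU-DHL6 library 1, at 41.5 against -16.2 and -17.5.

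On the deposited FPKM values, which are per length and relative to the library total, NUP210 was the most abundant member in 3 of the 4 groups. NUP210, a membrane nucleoporin with a large part in the lumen of the envelope (ENSG00000132182, chr3:13316235-13420309, minus strand), averaged 88.9 ± 10.7 FPKM in selinexor-treated and 116 ± 4.35 FPKM in untreated OCI-LY3 (SD, n = 3 each). In SU-DHL6 the level of NUP210 was 32.1 ± 2.9 FPKM with selinexor and 54.9 ± 5.92 FPKM without (SD, n = 3 each). Second to NUP210 in untreated OCI-LY3 were NUP188, an inner ring scaffold protein, at 19.3 ± 0.79 FPKM and NUP153, an FG nucleoporin of the basket, at 19.2 ± 1.08 FPKM, a pair that did not differ beyond their spread. In selinexor-treated SU-DHL6 the order at the top was the other way round, with NUP153 at 43.5 ± 4.12 FPKM above NUP210, and the libraries of the 2 genes did not overlap. The lowest levels were those of NUP54, NUP35 and TMEM33, whose group means lay between 1.11 and 2.94 FPKM. The basket gene TPR moved most in the order, standing at rank 6 of 31 in selinexor-treated SU-DHL6 and at rank 25 in untreated SU-DHL6, against ranks 15 and 18 in selinexor-treated and untreated OCI-LY3.

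**Figure D1:**
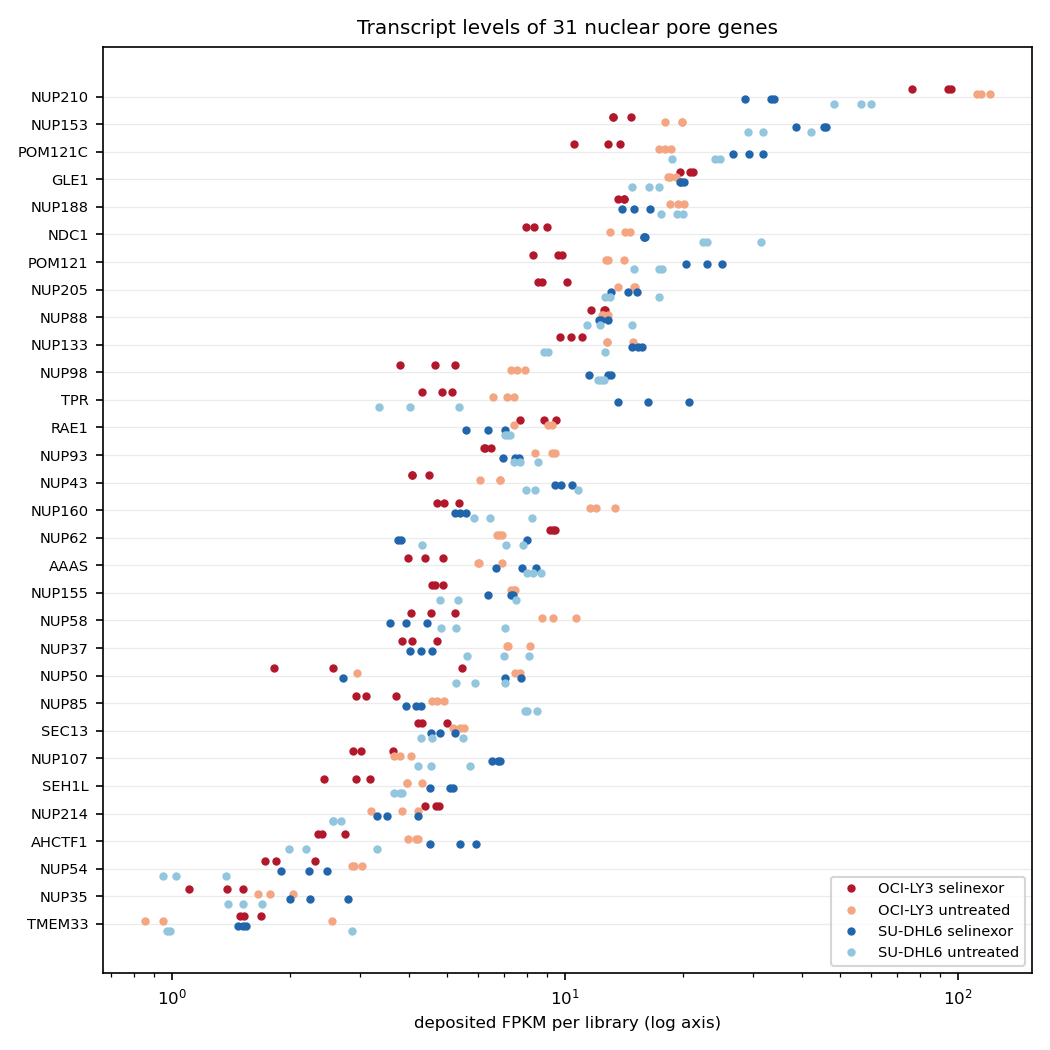
Deposited FPKM per library (log axis) of the 31 members, with 3 points in each of the 4 groups. Members are ordered by their mean FPKM over all libraries. NUP210 stands above the other members in untreated OCI-LY3, with a mean of 116 FPKM, and NUP54, NUP35 and TMEM33 lie lowest.

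Promoter sequence was available for 28 of the 31 members, as the 250 bases before the RefSeq start on GRCh38.p14, read on the strand of the gene. Printed here are 6 of them, from members whose responses are described further on and whose window holds a motif that was searched for. Capitals mark the match, which is the ETS core CCGGAAGT (or its reverse complement ACTTCCGG) in 5 of them and the cyclic AMP response element TGACGTCA in NUP133. POM121 (chr7:72879107-72879356, plus strand) and POM121C (chr7:75486300-75486549, minus strand) are near-identical copies on chromosome 7, and NUP133 (chr1:229508342-229508591, minus strand) and NUP54 (chr4:76148516-76148647, minus strand) follow, with NUP54 limited to the 132 bases before its GENCODE start. For NUP160 (chr11:47848366-47848395, minus strand) and NUP58 (chr13:25301547-25301576, plus strand) only 30 bases around the match are given, which lie before the RefSeq start but inside the gene as GENCODE places it.
POM121: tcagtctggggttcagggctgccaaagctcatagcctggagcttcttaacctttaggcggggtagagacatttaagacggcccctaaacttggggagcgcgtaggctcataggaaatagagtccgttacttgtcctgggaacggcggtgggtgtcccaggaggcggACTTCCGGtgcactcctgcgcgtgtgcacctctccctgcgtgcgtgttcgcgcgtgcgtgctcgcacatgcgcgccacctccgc
POM121C: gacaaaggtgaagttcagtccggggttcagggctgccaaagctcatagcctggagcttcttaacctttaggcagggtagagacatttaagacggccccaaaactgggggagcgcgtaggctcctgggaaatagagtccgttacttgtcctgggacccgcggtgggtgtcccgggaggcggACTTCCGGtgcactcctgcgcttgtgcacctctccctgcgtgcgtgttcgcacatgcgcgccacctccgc
NUP133: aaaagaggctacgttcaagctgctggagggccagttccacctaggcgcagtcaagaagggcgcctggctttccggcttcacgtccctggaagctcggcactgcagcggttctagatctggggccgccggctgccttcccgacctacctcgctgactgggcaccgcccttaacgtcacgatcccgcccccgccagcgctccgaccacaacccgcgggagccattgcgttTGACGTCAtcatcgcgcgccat
NUP54: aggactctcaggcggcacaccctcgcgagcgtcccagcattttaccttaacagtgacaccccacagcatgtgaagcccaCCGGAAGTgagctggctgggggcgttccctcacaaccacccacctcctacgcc
NUP160: ccgccccacccCCGGAAGTgacggcgaccg
NUP58: gtgacggttacACTTCCGGcgggctacgtg
The POM121 and POM121C stretches were identical at 226 of 236 aligned bases (95.8%). Both strands were searched for 6 motifs. The ETS core was in 7 member promoters (25%, namely NUP160, NUP35, NUP54, NUP58, POM121, POM121C and SEC13), against 3.42% of 35116 RefSeq promoters of the same length, with both near-identical copies counted. The NRF1 palindrome was in 3 (10.7%, NUP107, NUP50 and NUP62), against 1.31% of all. The cyclic AMP response element was in 2 (7.14%, NUP133 and NUP214), against 1.65% of all. The CCAAT box was in 9 (32.1%, against 32.0% of all), TGATGNAA was in NUP153 (3.57%, against 3.14%), and none held the E2F forms TTTGGCGC, TTTCCCGC, TTTCGCGC or TTTGCCGC (2.79% of all). Of the 8 members that fell in both lines, all had a promoter in the table and 2 held the ETS core (NUP160 and NUP58). A match is a run of letters in this window and was not measured as a binding site.

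Most of the pore genes fell with selinexor in OCI-LY3. Of the 31 members, 19 (61.3%) fell and 2 (6.45%) rose, against 22.2% of all 16474 tested genes that fell and 22.2% that rose, 44.4% together (edgeR quasi-likelihood test, Benjamini-Hochberg adjusted p under 0.05). The median log2 fold change of the members was -0.40, where that of all tested genes was 0, and 25 of the 31 values were negative. Levels in CPM, here counts relative to library totals scaled by TMM, summed over the members to 3199 to 3312 in the selinexor-treated and 3969 to 4077 in the untreated OCI-LY3 libraries. A fold change in a bulk sample cannot tell fewer cells that express a gene from less RNA per cell. The fallers were spread over the pore, with 6 of 9 in the Y complex, 4 of 5 in the inner ring, 2 of 3 in the central channel, 2 of 6 on the cytoplasmic face, 2 of 3 in the basket and 3 of 5 in the membrane. Both risers, NUP214 and GLE1, belong to the cytoplasmic face.

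**Figure D2:**
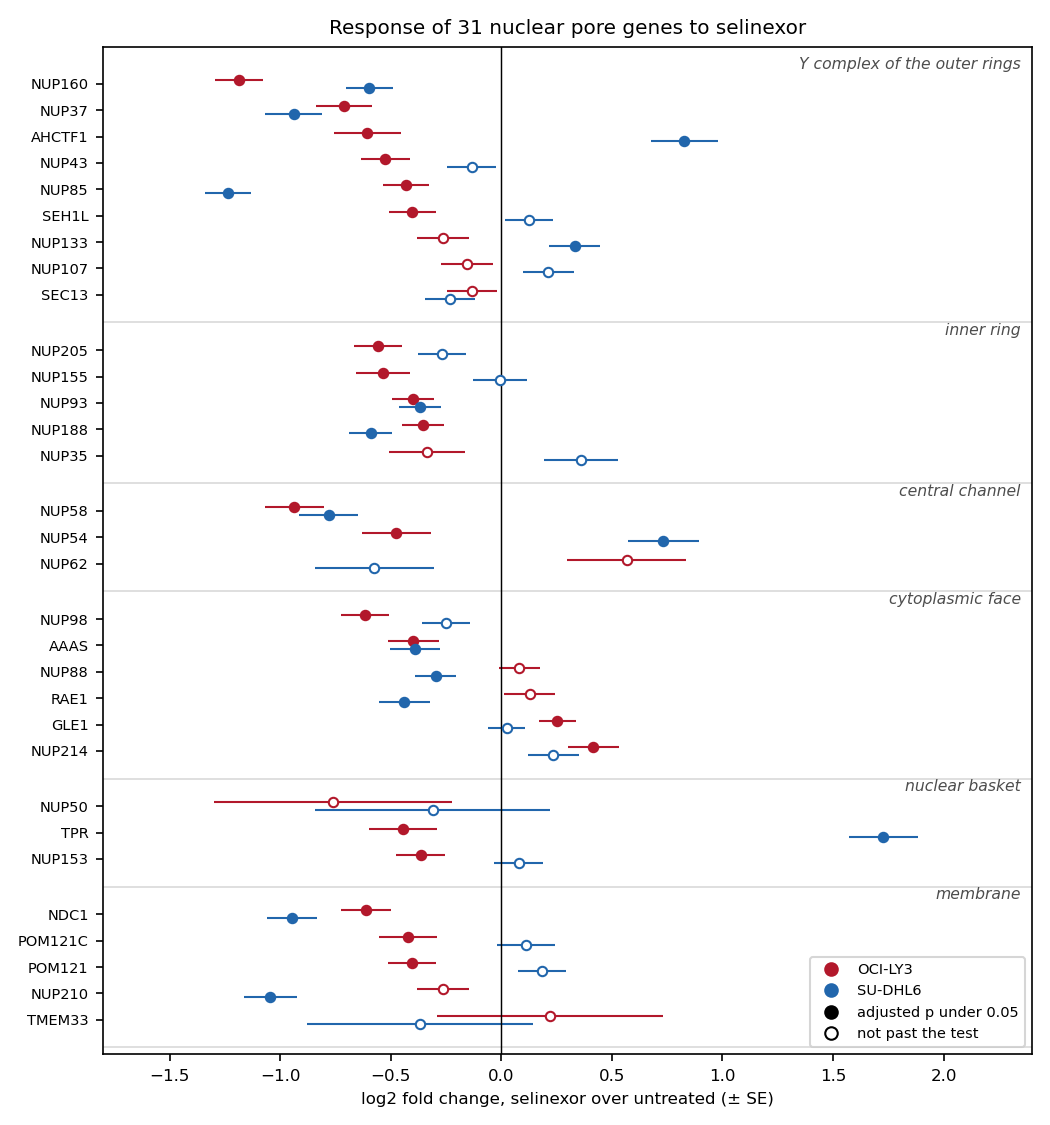
Log2 fold change of each member with selinexor in OCI-LY3 and in SU-DHL6, with bars of 1 SE and filled points for members past the adjusted p threshold of 0.05, grouped by position in the pore. In OCI-LY3 19 members lie below 0 and pass the threshold, while in SU-DHL6 TPR (1.73), AHCTF1 (0.83) and NUP54 (0.73) lie to the right of 0.

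In the Y complex, NUP160 (ENSG00000030066, chr11:47778087-47848555, minus strand), a scaffold subunit, had 66.2, 67.4 and 73.4 CPM in the selinexor-treated OCI-LY3 libraries, against 169, 149 and 154 CPM in the untreated ones. The groups did not overlap, and the log2 fold change of -1.19 ± 0.11 (edgeR adjusted p = 8.67e-07) was the steepest fall among the members in this line. For members named by smallest adjusted p in a comparison of 2 groups, lack of overlap was a condition of being named. NUP37 (ENSG00000075188, chr12:102073103-102120124, minus strand), which binds NUP160 in the Y complex, had 23.3, 24.1 and 27.9 CPM with selinexor, against 44.3, 39.7 and 39.3 CPM without. It too fell with no overlap, by a log2 fold change of -0.71 ± 0.13 (edgeR adjusted p = 0.00045). AHCTF1, also called ELYS, which brings the Y complex to chromatin when the envelope reforms after mitosis, fell (-0.61), as did NUP43 (-0.52), NUP85 (-0.43) and SEH1L (-0.40). The other 3 members placed in the Y complex here were not called, with log2 fold changes of -0.26 (NUP133), -0.15 (NUP107) and -0.13 (SEC13, which also serves in the COPII coat of vesicles).

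Among the inner ring scaffold genes, NUP205 (ENSG00000155561, chr7:135557919-135648757, plus strand) had 102, 97 and 115 CPM with selinexor, against 157, 145 and 159 CPM without. The 2 groups were apart in every library, and the log2 fold change was -0.56 ± 0.11 (edgeR adjusted p = 0.000892). NUP155, NUP93 and NUP188, the other large scaffold genes of this ring, fell by log2 fold changes of -0.53, -0.40 and -0.35. NUP35, which links them to the membrane, was not called (-0.34, edgeR adjusted p = 0.126) and had only 8.23 to 13.8 CPM in OCI-LY3. In the central channel, where NUP62, NUP58 and NUP54 form one FG-repeat complex, NUP58 (ENSG00000139496, chr13:25301524-25349800, plus strand) had 74.2, 64.8 and 83.3 CPM with selinexor, against 156, 139 and 130.0 CPM without. NUP58 fell with a log2 fold change of -0.94 ± 0.13 (edgeR adjusted p = 5.95e-05), again with no overlap, and its partner NUP54 fell (-0.47 ± 0.16, edgeR adjusted p = 0.0232).

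The membrane gene NDC1 (ENSG00000058804, chr1:53765460-53838860, minus strand), which anchors the inner ring, had 53, 49.6 and 55.9 CPM with selinexor, against 81.2, 75.9 and 85.1 CPM without. Its groups did not overlap and the log2 fold change was -0.61 ± 0.11 (edgeR adjusted p = 0.000529). POM121 and POM121C fell by similar amounts (-0.40 and -0.42). NUP210, the most abundant member, had 973, 966 and 769 CPM with selinexor, against 1061, 1056 and 1133 CPM without. No treated library reached an untreated one, but the log2 fold change of -0.26 ± 0.12 did not pass the test (edgeR adjusted p = 0.0864) and was called in 4 of 21 alternative settings, scaling by total counts among them (-0.38). In the basket, TPR, a coiled-coil protein that forms its filaments, fell (-0.45 ± 0.15, edgeR adjusted p = 0.0299), as did the FG nucleoporin NUP153 (-0.36, edgeR adjusted p = 0.0165).

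The cytoplasmic face was the one position with calls in both directions in OCI-LY3. NUP98 (ENSG00000110713, chr11:3671083-3797792, minus strand), an FG nucleoporin that also binds XPO1, had 96.1, 76.4 and 105 CPM with selinexor, against 134, 142 and 149 CPM without, and fell with a log2 fold change of -0.62 ± 0.11 (edgeR adjusted p = 0.000406). NUP214 (ENSG00000126883, chr9:131125561-131234670, plus strand), an FG nucleoporin that binds XPO1 at the end of export, had 126, 126 and 115 CPM with selinexor, against 102, 78.8 and 94.4 CPM without. The treated libraries all lay above the untreated ones, and NUP214 rose with a log2 fold change of 0.41 ± 0.12 (edgeR adjusted p = 0.00933), a call lost without the second untreated library (0.32, adjusted p = 0.054). GLE1 (ENSG00000119392, chr9:128504700-128542288, plus strand), which activates the helicase DDX19 in messenger RNA release, had 93.4, 96.9 and 98.6 CPM with selinexor, against 78.3, 80.7 and 83.3 CPM without. The groups were apart, but by little, with a log2 fold change of 0.25 ± 0.08 (edgeR adjusted p = 0.024), a call lost in 7 of 21 alternative settings. AAAS, which NDC1 holds at the pore, fell (-0.40), and the messenger RNA export factor RAE1 (0.13) and the NUP214 partner NUP88 (0.08) were not called.

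In SU-DHL6 the pore genes split. Of the 31 members, 11 (35.5%) fell and 4 (12.9%) rose, against 22.8% of all tested genes that fell and 20.4% that rose, 43.2% together. The median log2 fold change was -0.25, where that of all tested genes was 0.0028. Without the first untreated library, which stood apart, the members' median was -0.16 and that of all genes 0.02. The steepest falls were those of NUP85, NUP210, NDC1 and NUP37, and the risers were TPR, AHCTF1, NUP54 and NUP133. The split depends on scaling: scaled by total counts in place of TMM, the median of all genes in SU-DHL6 moved to 0.27 and that of the members to 0.02, and 12 members rose and 7 fell. The members' median lay below that of all genes under both scalings. Summed over the members, CPM were 2836 to 3049 in the selinexor-treated and 3396 to 3417 in the untreated libraries. Within these sums NUP210 alone averaged 238 CPM with selinexor and 492 CPM without. The members' share of all counts overlapped, at 0.330% to 0.367% with selinexor and 0.331% to 0.355% without. None of the 15 called members changed sign under any alternative setting.

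TPR (ENSG00000047410, chr1:186311652-186375693, minus strand) had 167, 246 and 188 CPM in the selinexor-treated SU-DHL6 libraries, against 73.6, 49 and 59.1 CPM in the untreated ones. Even the lowest treated library stood well above the highest untreated one, and the log2 fold change of 1.73 ± 0.16 (edgeR adjusted p = 1.13e-06) was the largest change of any member in either line. AHCTF1 (ENSG00000153207, chr1:246839098-246931978, minus strand) had 47.3, 60.1 and 53.2 CPM with selinexor, against 38.7, 24.5 and 27.2 CPM without. The groups did not overlap, although the first untreated library was the highest of its group, and AHCTF1 rose with a log2 fold change of 0.83 ± 0.15 (edgeR adjusted p = 0.000547). NUP54 (ENSG00000138750, chr4:76114659-76148515, minus strand) had 19.4, 17 and 14 CPM with selinexor, against 12, 8.76 and 9.53 CPM without, and rose with a log2 fold change of 0.73 ± 0.16 (edgeR adjusted p = 0.00208) with no overlap. Without the first untreated library, which stood apart, the rises were 1.89 (TPR), 1.04 (AHCTF1) and 0.87 (NUP54), and all 3 stayed called under every alternative setting.

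NUP133 (ENSG00000069248, chr1:229440260-229508341, minus strand), a membrane-sensing subunit at the tip of the Y complex, had 91.9, 86.4 and 89 CPM with selinexor, against 84.7, 62.7 and 65 CPM without. Its first untreated library came close to the treated ones, and the rise of 0.33 ± 0.12 (edgeR adjusted p = 0.0319) was lost in 6 of 21 alternative settings. The transcripts of TPR, AHCTF1 and NUP54 are poor in G and C, with 40.1%, 40.3% and 39.8% in the longest annotated transcript. The range over the members was 36.4% (NUP58) to 58.4% (NUP62), and the riser NUP133 had 43.7%. Low values were not particular to the risers, since NUP58, NUP37 (38.6%) and NDC1 (40.7%) fell in this line. With offsets per library for GC content and length, the rises were 1.49 (TPR), 0.64 (AHCTF1) and 0.58 (NUP54). Beyond these values, the part of GC content in the rises was not tested.

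NUP85 (ENSG00000125450, chr17:75205659-75235758, plus strand), a Y complex scaffold subunit, had 35.8, 31.8 and 32.9 CPM in the selinexor-treated SU-DHL6 libraries, against 79.3, 79.1 and 78.5 CPM in the untreated ones. Replicates agreed closely, the groups were far apart, and the log2 fold change of -1.24 ± 0.10 (edgeR adjusted p = 4.33e-07) was the steepest fall of a member in this line. NUP210 had 219.7, 249 and 246 CPM with selinexor, against 415, 544 and 517 CPM without, and fell with a log2 fold change of -1.04 ± 0.12 (edgeR adjusted p = 1e-05). Its share of all member counts was 7.75% to 8.26% with selinexor and 12.1% to 16.0% without. NDC1 had 75.5, 73 and 71 CPM with selinexor, against 168, 126 and 129.7 CPM without, a log2 fold change of -0.95 ± 0.11 (edgeR adjusted p = 1.23e-05). Here too no treated library overlapped an untreated one, and without the first untreated library, the highest, the value was -0.81.

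NUP37 had 20.6, 17.7 and 18.3 CPM with selinexor, against 40.8, 37.4 and 30.3 CPM without, and fell with a log2 fold change of -0.94 ± 0.13 (edgeR adjusted p = 4.82e-05). NUP188 had 119, 137 and 120.3 CPM with selinexor, against 167, 195 and 203 CPM without, and fell with a log2 fold change of -0.59 ± 0.10 (edgeR adjusted p = 0.000193). NUP58 had 43.2, 46.3 and 50.9 CPM with selinexor, against 95.4, 69.2 and 76.5 CPM without, and fell with a log2 fold change of -0.78 ± 0.13 (edgeR adjusted p = 0.000306). In each of these 3 genes the treated and untreated libraries were apart, which was a condition of being named. The other fallers were NUP160 (-0.60), RAE1 (-0.44), AAAS (-0.39), NUP93 (-0.37) and NUP88 (-0.30), the last of which lost its call in 6 of 21 alternative settings. The 16 members not called had values between -0.57 (NUP62) and 0.36 (NUP35). None of the cytoplasmic face, the inner ring or the membrane was called higher in this line, where 20.4% of all tested genes were. This depends on scaling: by total counts, GLE1, NUP214, NUP35, POM121 and POM121C were called higher. With offsets for GC content and length, NUP214, POM121 and POM121C were called higher.

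**Figure D3:**
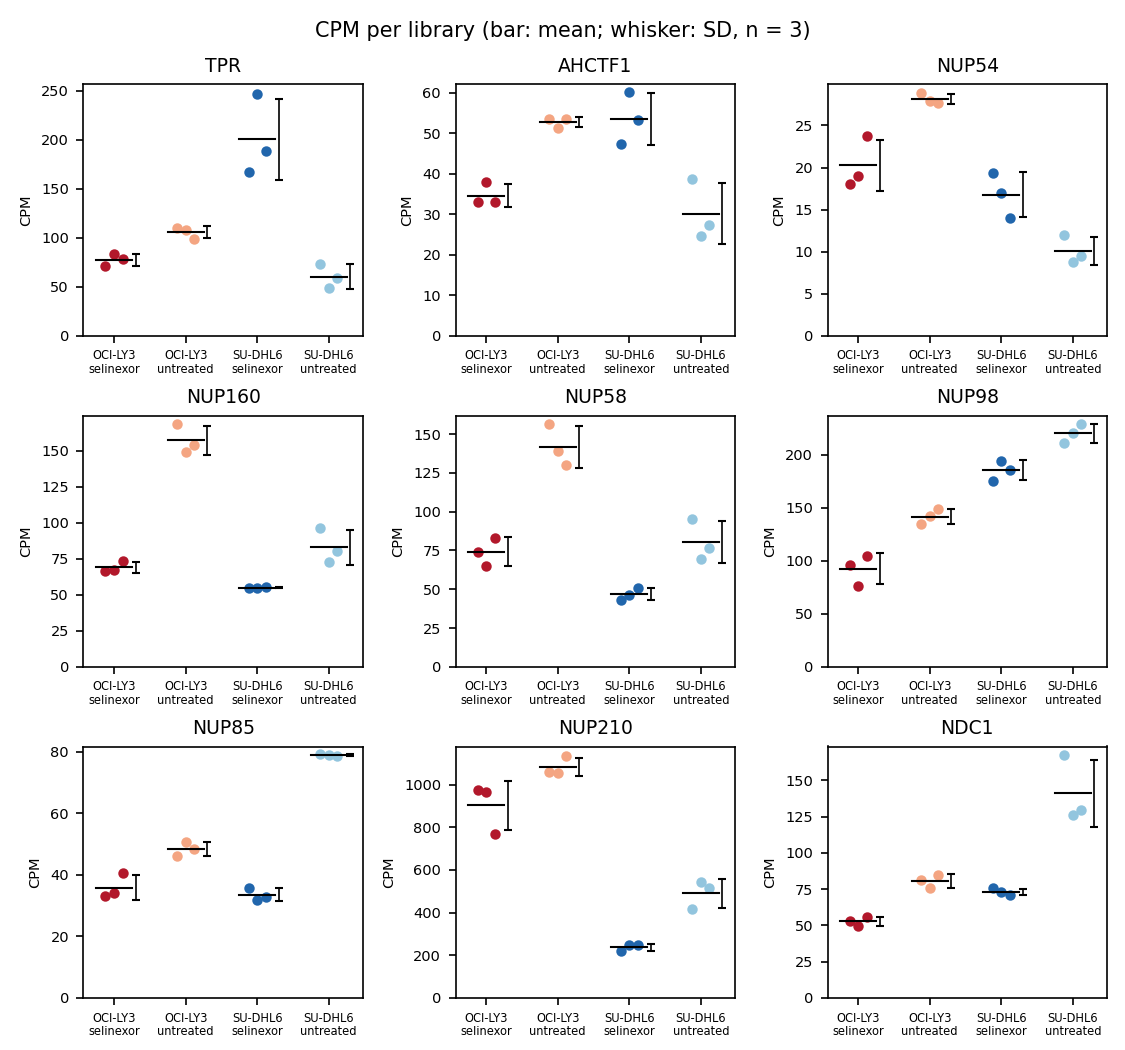
CPM per library of 9 members in the 4 groups, with a bar for the mean and a whisker for the SD over 3 libraries. TPR, AHCTF1 and NUP54 are lower with selinexor in OCI-LY3 and higher with selinexor in SU-DHL6, while NUP160, NUP58, NUP85 and NDC1 are lower with selinexor in both lines.

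Across the lines, 8 members fell in both (AAAS, NDC1, NUP160, NUP188, NUP37, NUP58, NUP85 and NUP93), no member rose in both, and 3 fell in OCI-LY3 and rose in SU-DHL6 (AHCTF1, NUP54 and TPR). A further 8 were called lower in OCI-LY3 alone, 3 were called lower in SU-DHL6 alone, 2 were called higher in OCI-LY3 alone and NUP133 was called higher in SU-DHL6 alone. Called in neither line were the 6 members NUP107, NUP35, NUP50, NUP62, SEC13 and TMEM33. The share of all tested genes in each of these joint classes was not computed, so the counts show no excess over all genes. A call in a single line does not show that the responses differ, which was tested as the interaction of line and treatment. The difference (OCI-LY3 response minus SU-DHL6 response) was called for 16 members, higher for 5 (16.1%) and lower for 11 (35.5%), against 19.9% and 17.0% of all tested genes, 36.9% together. Its median over the members was -0.29, where that of all tested genes was 0.02. The members' median moved to -0.16 without the first selinexor-treated OCI-LY3 library (all genes 0.0088) and to -0.17 with offsets for GC content and length. Scaled by total counts, the medians were -0.67 over the members and -0.35 over all genes, and 1 member was called higher and 16 lower.

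TPR had the largest difference, -2.17 ± 0.22 on the log2 scale (edgeR adjusted p = 5.94e-06), followed by AHCTF1 at -1.43 ± 0.21 (edgeR adjusted p = 0.000154) and NUP54 at -1.21 ± 0.22 (edgeR adjusted p = 0.000789). In OCI-LY3 these genes ran the other way from SU-DHL6 in every library. TPR had 71.3, 83 and 78.1 CPM in selinexor-treated OCI-LY3, against 110.3, 108 and 98.6 CPM in untreated OCI-LY3. AHCTF1 had 33.1, 37.8 and 32.9 CPM with selinexor, against 53.4, 51.2 and 53.4 CPM without, and NUP54 had 18.1, 18.9 and 23.7 CPM with selinexor, against 28.8, 27.9 and 27.6 CPM without. All 3 falls had no overlap between groups, but those of TPR and NUP54 were lost in 5 and 4 of 21 alternative settings. Their SU-DHL6 rises held in all 21.

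NUP160 fell in both lines, and more in OCI-LY3, with a difference of -0.59 ± 0.15 (edgeR adjusted p = 0.0069). In SU-DHL6 it had 54.4, 54.7 and 55.2 CPM with selinexor, against 96, 72.5 and 80.1 CPM without, levels that did not overlap either. POM121 (-0.59 ± 0.15, edgeR adjusted p = 0.00843) and NUP133 (-0.60 ± 0.16, edgeR adjusted p = 0.011) also had lower responses in OCI-LY3. So had NUP35 (-0.69), NUP155 (-0.53), SEH1L (-0.53), POM121C (-0.53) and NUP153 (-0.44), of which SEH1L lost its call in 1 of 20 alternative settings and the others in 7 to 10. By position, the 11 were 2 of 3 basket members (TPR and NUP153) and 4 of 9 Y complex members (AHCTF1, NUP133, NUP160 and SEH1L). The others were 2 of 5 in the inner ring, 2 of 5 in the membrane and 1 of 3 in the central channel. The cytoplasmic face had 0 of 6, and 17.0% of all tested genes were called lower. A difference between positions was not tested.

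On the other side, NUP85 fell in both lines but less in OCI-LY3, with 33, 34.1 and 40.6 CPM in selinexor-treated and 46.2, 50.5 and 48.4 CPM in untreated OCI-LY3. Its difference was 0.80 ± 0.14 (edgeR adjusted p = 0.000627). NUP210 differed by 0.78 ± 0.17 (edgeR adjusted p = 0.00229), a call lost when scaled by total counts (0.40, adjusted p = 0.056). RAE1 had 69.3, 78 and 83.5 CPM in selinexor-treated and 73.4, 61.4 and 76.5 CPM in untreated OCI-LY3, which overlapped, and 42.7, 36.5 and 44.5 CPM in selinexor-treated and 53.6, 56 and 58.1 CPM in untreated SU-DHL6, which did not. Its difference of 0.57 ± 0.16 (edgeR adjusted p = 0.0138) was lost when scaled by total counts (0.19, adjusted p = 0.417). NUP88 had 123, 130.2 and 130.1 CPM in selinexor-treated and 122, 120.0 and 120.3 CPM in untreated OCI-LY3, and 101, 94.1 and 90.4 CPM in selinexor-treated and 130.2, 106 and 115 CPM in untreated SU-DHL6. The NUP88 difference of 0.38 ± 0.13 (edgeR adjusted p = 0.0344) was lost in 12 of 20 alternative settings.

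In 3 members the replicates disagreed in some of the groups, so the means of those groups say little. NUP50, a basket protein that helps release imported cargo, had 31.1, 43.1 and 91.4 CPM in selinexor-treated and 118, 117 and 46.1 CPM in untreated OCI-LY3, and 89.5, 95.2 and 32.6 CPM in selinexor-treated and 100.2, 88.9 and 80.4 CPM in untreated SU-DHL6. A single library in each of the first 3 groups lay far from its replicates, and neither response was called (-0.76 ± 0.54 in OCI-LY3 and -0.31 ± 0.53 in SU-DHL6). TMEM33, an endoplasmic reticulum membrane protein whose yeast relative takes part in pore assembly, had 28.1, 28.3 and 31 CPM in selinexor-treated and 14.6, 44.1 and 16.4 CPM in untreated OCI-LY3, and 21.2, 20.1 and 20.5 CPM in selinexor-treated and 15.3, 16.5 and 48.2 CPM in untreated SU-DHL6. A single untreated library in each line stood far above the others, with a highest-to-lowest ratio of 3.03 in OCI-LY3 and 3.16 in SU-DHL6. Such a spread over 2-fold was seen in 2.44% to 4.01% of genes with at least 10 CPM in a group.

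NUP62 (ENSG00000213024, chr19:49906825-49929763, minus strand), the FG nucleoporin of the central channel that binds many transport receptors, had 229, 221 and 217 CPM in selinexor-treated and 148, 154 and 149 CPM in untreated OCI-LY3. These groups did not overlap, but the log2 fold change of 0.57 ± 0.27 did not pass the test (edgeR adjusted p = 0.114). The OCI-LY3 value was called in 3 of 21 alternative settings, which were DESeq2, a fit of OCI-LY3 alone and a fit without the third selinexor-treated SU-DHL6 library, with adjusted p between 0.00014 and 0.281 over all 21. In SU-DHL6 it had 68.6, 65.8 and 136 CPM with selinexor and 143, 167 and 93.2 CPM without, with 1 library of each group near the level of the other group, and the log2 fold change of -0.57 ± 0.27 was called only without the third selinexor-treated or the third untreated SU-DHL6 library. The difference of 1.14 ± 0.38 was called (edgeR adjusted p = 0.038), and lost in 14 of 20 alternative settings. NUP62 shares exonic bases with ATF5, on the opposite strand, and with IL4I1, on the same strand. ATF5 had 1406, 1377 and 1663 CPM in selinexor-treated and 2978, 3280 and 3022 CPM in untreated OCI-LY3. In SU-DHL6 ATF5 had 177, 166 and 168 CPM with selinexor and 561, 755 and 561 CPM without. IL4I1 had 627, 580 and 518 CPM in selinexor-treated and 711, 777 and 829 CPM in untreated OCI-LY3. In SU-DHL6 IL4I1 had 1.83, 1.84 and 2.09 CPM with selinexor and 6.31, 7.33 and 7.87 CPM without. How the authors' counting assigned shared or opposite-strand reads is not given in the sources used here, and the part of ATF5 in the NUP62 values was not tested.

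**Figure D4:**
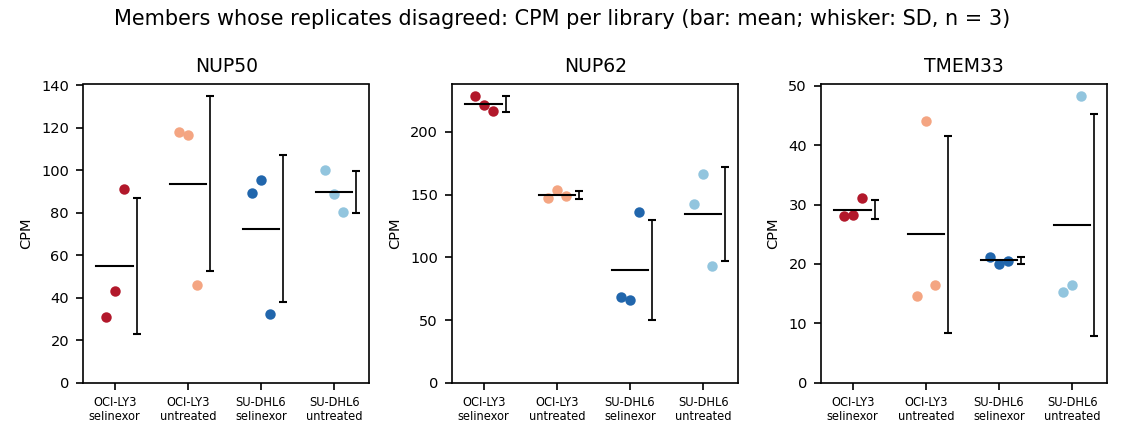
CPM per library of NUP50, NUP62 and TMEM33 in the 4 groups, with a bar for the mean and a whisker for the SD over 3 libraries. Single libraries lie far from the others in 3 groups of NUP50, in both SU-DHL6 groups of NUP62 and in both untreated groups of TMEM33.

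Shared sequence touched other members too. Of all 50-base windows in the longest transcript, some also occurred in transcripts of other genes. The share was 65.7% in POM121, 63.3% in POM121C, 48.4% in AHCTF1, 31.3% in NUP62, 16.4% in NUP88 and 15.7% in NUP50. It was 0% in 11 members, NUP160, NUP58, NUP54, NUP85, NUP210 and NDC1 among them. Values of POM121 and POM121C are therefore uncertain, since reads could be split between them. The AHCTF1 pseudogene AHCTF1P1 had 114, 134 and 143 counts in selinexor-treated and 261, 222 and 222 counts in untreated OCI-LY3, and 279, 322 and 322 counts in selinexor-treated and 140, 100 and 100 counts in untreated SU-DHL6. Those counts moved the same way as AHCTF1 in each line, and which gene the reads came from was not tested. Exonic bases were shared with another gene by 18 members, and in 8 of them (NUP153, NUP188, NUP43, NUP62, NUP88, NUP98, POM121 and POM121C) that gene had over 10% of the member's mean count.

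Untreated OCI-LY3 was higher than untreated SU-DHL6 for 12 members (38.7%) and lower for 7 (22.6%), 61.3% together. Of all tested genes 33.6% were higher and 33.7% lower, 67.3% together, so a difference between the untreated lines was no more frequent among the members than over all genes. The median log2 difference was 0.18 over the members and -0.03 over all genes. Scaled by total counts, 9 were higher and 9 lower. These comparisons use the same untreated libraries as the responses, so a high untreated level enters both. NUP210 had 1061, 1056 and 1133 CPM in untreated OCI-LY3, against 415, 544 and 517 CPM in untreated SU-DHL6, a difference of 1.14 ± 0.12 (edgeR adjusted p = 9.79e-07). NUP54 (1.48 ± 0.16, edgeR adjusted p = 1.39e-06) had the largest difference, followed by NUP210, NUP160 (0.92), NUP58 (0.82), AHCTF1 (0.80) and TPR (0.80). The libraries of the lines did not overlap for any of these 6, which was a condition of being named.

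Lower in untreated OCI-LY3 were NDC1 (-0.80 ± 0.11, edgeR adjusted p = 1.61e-05), NUP153 (-0.77 ± 0.11, edgeR adjusted p = 2.69e-05), NUP85 (-0.71 ± 0.10, edgeR adjusted p = 2.43e-05), NUP98 (-0.64), NUP43 (-0.38) and AAAS (-0.33). These 6 had no overlap, again a condition of being named. POM121, the other member called lower (-0.27, edgeR adjusted p = 0.0443), overlapped between the lines and lost its call in 11 of 20 alternative settings. NUP153 averaged 147 ± 7.52 CPM in untreated OCI-LY3 and 250.5 ± 40.9 CPM in untreated SU-DHL6 (SD, n = 3 each), and NUP98 averaged 142 ± 7.15 CPM in untreated OCI-LY3 and 220.3 ± 9.24 CPM in untreated SU-DHL6. By position, all 5 inner ring and all 3 central channel members had positive values, while 4 of the 5 membrane members had negative values. Called higher were 2 and 2 of the first 2 positions, against 33.6% of all tested genes. Over all 31 members 21 values were positive, and the median of all tested genes was -0.03. The signs of NUP62, TMEM33 and NUP188 changed in 2, 3 and 1 of 20 alternative settings.

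Genes that work with the pore were set beside the members, and the counts of their lists stand against 22.2% of all tested genes that rose and 22.2% that fell in OCI-LY3, and 20.4% that rose and 22.8% that fell in SU-DHL6. The median log2 fold change of all tested genes was 0 in OCI-LY3 and 0.0028 in SU-DHL6. Among 4 tested nucleoporins outside the members, RANBP2, which forms the cytoplasmic filaments and has near-identical RGPD copies, averaged 277 ± 48.8 CPM in selinexor-treated and 99.4 ± 24.2 CPM in untreated SU-DHL6 (SD, n = 3 each), a rise of 1.48 ± 0.16 (edgeR adjusted p = 4.95e-06). In OCI-LY3 RANBP2 was not called (0.31 ± 0.16, edgeR adjusted p = 0.126), and the difference of the responses was -1.17 ± 0.22 (edgeR adjusted p = 0.000885). The basket-associated gene ZC3HC1 rose in OCI-LY3 (0.45). Of 9 genes of the Ran cycle, which drives transport through the pore, 2 rose and 5 fell in OCI-LY3 and 1 rose and 6 fell in SU-DHL6. XPO1, the target of selinexor, rose in both lines (0.99 in OCI-LY3 and 1.77 in SU-DHL6), and RCC1, which loads Ran with GTP on chromatin, fell in both (-1.08 in OCI-LY3 and -1.23 in SU-DHL6). KPNB1, which carries imported cargo, also fell in both (-1.33 in OCI-LY3 and -0.49 in SU-DHL6), and more in OCI-LY3, with a difference of the responses of -0.84 ± 0.17 (edgeR adjusted p = 0.00126).

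Of 22 messenger RNA export genes, none rose and 10 fell in OCI-LY3, while 4 rose and 8 fell in SU-DHL6, with median log2 fold changes of -0.26 in OCI-LY3 and -0.02 in SU-DHL6. The 4 risers in SU-DHL6 are near the 20.4% of all tested genes that rose there. NXF1, the receptor that carries messenger RNA through the pore, rose in SU-DHL6 (1.06) and was not called in OCI-LY3 (0.25), and the helicase DDX19B, which GLE1 activates, fell in both lines (-0.79 in OCI-LY3 and -0.69 in SU-DHL6), with a difference of -0.10 ± 0.15 that was not called. DDX19A, of the same list, fell in OCI-LY3 (-0.62) and was not called in SU-DHL6 (0.32). The DDX19A difference was -0.94 ± 0.27 (edgeR adjusted p = 0.0149). Of 16 nuclear envelope genes, 5 rose and 5 fell in OCI-LY3 and 2 rose and 5 fell in SU-DHL6, with medians of 0.08 in OCI-LY3 and -0.26 in SU-DHL6. The lamina gene LMNB1 fell in both lines (-1.06 in OCI-LY3 and -1.20 in SU-DHL6), and the envelope linker genes SYNE1 (1.43) and SUN2 (1.15) rose in OCI-LY3. SUN2 and SYNE1 responses differed between the lines by 1.39 and 1.43 on the log2 scale (edgeR adjusted p = 4.93e-05 and 5.5e-05).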

How the data were processed

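The authors deposited 1 table with a read count and an FPKM value per gene and library, per the file headers. The deposited FPKM values are the counts divided by gene length and library total: over 9162 genes with at least 50 counts the implied lengths differed by a ratio of at most 1.000019 between libraries. They were used for levels between genes and not tested. Neither an aligner nor a counting program or its strand mode is given in the sources used here. Per the submitters' processing notes the builds were GRCm38 and mm10, of mouse, but the identifiers are human: 58039 of them matched GENCODE release 29 on GRCh38, 97.5% with identical coordinates (263 did not match). Coordinates are those of the table, identical to GENCODE 29 for 30 members and not for AHCTF1. Per the labels, 1.3 µg of RNA entered an mRNA library kit.

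Counts were fitted with edgeR 4.0.16 in R 4.3.3, with filterByExpr by group (16474 genes), TMM scaling, 1 coefficient per group over all 12 libraries and the robust quasi-likelihood F test. P-values were adjusted over all tested genes by Benjamini-Hochberg, with a threshold of 0.05 for a call. The SE is the ratio of the log2 fold change to the root of F. The fit was tested on simulated data. Members, gene lists, named genes and tests were chosen with earlier results of these data known. Named with full values were up to 6 members per direction and comparison with the smallest adjusted p, called and with groups that do not overlap (for the difference, called), and up to 2 called genes per direction, line and other list, besides RANBP2 and DDX19A. Only part of the latter are printed, picked after their values were seen. Alternatives were RLE size factors, total counts, DESeq2 1.42.0, limma-voom (limma 3.58.1), no filter, a filter of 1 CPM in 6 libraries, each line alone, offsets per library for GC content and length, the replicate number as a block, and fits without 1 library each. Promoters are from RefSeq (GRCh38.p14). Precision is limited by the 3 libraries per group. Protein sequences and 3 member promoters were not analysed here. A marker gene is not reported here.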

Additional observations from a re-analysis of the deposited data

Results flagged for a closer look

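The response to selinexor differed between the lines in 16 members, by the edgeR quasi-likelihood test of the interaction (OCI-LY3 response minus SU-DHL6 response, log2). Of all tested genes 36.9% were called, 19.9% higher and 17.0% lower. The difference was lower in OCI-LY3 for the basket genes TPR (-2.17) and NUP153 (-0.44), and for the Y complex genes AHCTF1 (-1.43), NUP133 (-0.60), NUP160 (-0.59) and SEH1L (-0.53). It was also lower for the channel gene NUP54 (-1.21), the inner ring genes NUP35 (-0.69) and NUP155 (-0.53), and the membrane genes POM121 (-0.59) and POM121C (-0.53). It was higher in OCI-LY3 for NUP62 (1.14), NUP85 (0.80), NUP210 (0.78), RAE1 (0.57) and NUP88 (0.38), of which NUP62 lost its call in 14 and NUP88 in 12 of 20 alternative settings. TPR, AHCTF1 and NUP54 were called in opposite directions in the lines. In the fit over all 12 libraries, neither NUP62 nor NUP35 was called within a line, while NUP62 was called in 3 of 21 alternative settings in OCI-LY3 and 2 of 21 in SU-DHL6, and NUP35 in 0 of 21 in OCI-LY3 and 2 of 21 in SU-DHL6. Groups of 3 libraries are too small for a test of single outlying libraries.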

How the results depend on the processing

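Over 41 named results and 21 alternatives (12 of them leaving out a library), 792 of 838 comparisons kept direction and side of the threshold, 46 kept direction and lost the call, and none reversed. The named results were picked for small adjusted p in these data, which favours stable calls. Called without exception were 13 of the 21 called members in OCI-LY3, 10 of 15 in SU-DHL6 and 7 of 16 in the difference. TPR, AHCTF1 and NUP54 were among the last 2 groups. The cause of the following moves was not tested. Scaled by total counts, 1 member in place of 2 rose in OCI-LY3, 12 in place of 4 rose and 7 in place of 11 fell in SU-DHL6, and 1 in place of 5 had a higher difference. With no filter on low counts, 1 rose in OCI-LY3 and 3 had a higher difference. With GC and length offsets, 7 rose in SU-DHL6. Leaving out 1 library gave 0 to 3 risers in OCI-LY3 (0 without untreated library 2), 3 to 5 higher differences and 7 to 13 lower differences (7 without untreated OCI-LY3 library 3 or selinexor-treated SU-DHL6 library 2). Without untreated SU-DHL6 library 1, which stood apart, 5 rose and 11 fell in SU-DHL6, and without selinexor-treated OCI-LY3 library 3, 1 rose and 17 fell in OCI-LY3.

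The replicate numbers did not pair the libraries: same-numbered treated and untreated libraries correlated at 0.00747, 0.00472 and 0.0132 in OCI-LY3 and at -0.12, -0.022 and 0.0501 in SU-DHL6 in their deviations from the group means. With the replicate number as a block, 1 rose and 18 fell in OCI-LY3, 4 rose and 11 fell in SU-DHL6, and the difference was higher for 3 and lower for 9. Every member had 106 or more counts in each library, and the spread was estimated from 3 libraries per group.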
